A study of Apis mellifera with 15 samples.

Results

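The respiratory chain genes Ndufs5, Uqcr11 and CytC and the adenylate kinase gene Adk1 were followed in the brains of forager honey bees (Apis mellifera) given the insecticide thiacloprid, a neonicotinoid and agonist at the nicotinic receptors for acetylcholine. These 4 genes were chosen by symbol from the 12112 genes of the deposited count table, together with the 5 transcripts listed for them, and all 4 passed the low-count filter. Adult workers, collected where the site was unpolluted and then held in bottles, took sucrose solution with solvent (control), with 25 ng thiacloprid per bee or with 250 ng per bee for 72 h. Each group had 5 libraries of poly-A RNA, each from a pool of 5 dissected brains, so the spread between libraries includes differences between pools of animals. No strain, colony or age in days was given in the labels. A brain dissection can carry gland and muscle along, and in such bulk samples a change in the number of cells of a type and a change in RNA per cell cannot be told apart.

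The respiratory chain of the inner mitochondrial membrane passes electrons from NADH through complex I, ubiquinone, complex III, cytochrome c and complex IV to oxygen, and the proton gradient this builds drives ATP synthesis by complex V. Ndufs5 encodes an accessory subunit of complex I, and Uqcr11, in mammals, a small subunit of complex III. CytC encodes cytochrome c, the soluble carrier between complexes III and IV. Adenylate kinase moves phosphate between adenine nucleotides, interconverting ATP, ADP and AMP, and so links ATP use to the signals that report the energy state of a cell. Nervous tissue spends much of its ATP on ion pumping and depends on this system, and insect flight muscle is especially rich in it.

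The deposited transcript tables place all 4 genes exactly where assembly Amel_HAv3.1 has them. Ndufs5 lies on the minus strand of chromosome 5 (13858451 to 13859322), with a transcript of 683 nt (NM_001161831.1) and a shorter one of 389 nt inside it (XM_026440546.1), each of 2 exons. Uqcr11 lies on the plus strand of chromosome 1 (20626751 to 20627520), with 1 transcript of 460 nt and 3 exons. CytC lies on the minus strand of chromosome 10 (11824493 to 11827235), with 1 transcript of 1080 nt and 4 exons. Adk1 lies on the minus strand of chromosome 7 (10639558 to 10645120), with 1 transcript of 1128 nt and 5 exons. All 4 have transcripts shorter than the median of 2112 nt over tested genes. Apart from multi-copy transfer RNA names, no annotated gene overlapped any of them, and the nearest neighbour stood 123 bases from Uqcr11, on the opposite strand.

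Control libraries held between 9226059 and 11500655 counts, and libraries at 25 ng/bee between 8123655 and 10067138. At 250 ng/bee, replicates 2 to 5 held between 6834898 and 11180170, whereas replicate 1 held 29208991. Replicate 1 is the only library whose label starts with 20191023 in place of 20190809. The labels do not say what these strings mean. The 4 genes had from 796 counts (Adk1 in replicate 3 at 25 ng/bee) to 9316 (Uqcr11 in replicate 4 at 250 ng/bee). Of the fixed marker lists, the 8 genes for hypopharyngeal gland summed to 33910 to 268900 CPM over all libraries (CPM, counts per 1000000 of the library size after TMM scaling, which allows for differences in composition). The 5 of 16 muscle genes matched in the files, all troponins, summed to 90.6 to 1053 CPM. Of the 6 neuron markers 3 were matched. Their sum was 978.3 to 1255 CPM in the control and 883.3 to 1134 CPM with the lower dose. With the higher dose it was 792.3 to 950.7 CPM, below the control range. This difference was not tested, and the share of all tested genes lying wholly below the control is not given here. In the same order, the 6 fat body markers had group medians of 4383, 3535 and 3606 CPM. The 4 retina markers matched of 7 had medians of 5614, 4863 and 4802 CPM. Group ranges overlapped for both of these lists. Of 4 glia markers only GlnS was matched, at 1092 to 3146 CPM.

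Per length of transcript, Uqcr11 was the most abundant of the 4 genes in all 15 libraries and Adk1 the least. On the FPKM scale (fragments scaled for transcript length and library size), the control medians were 749.1 for Uqcr11, 278 for CytC, 278 for Ndufs5 and 82.3 for Adk1. CytC stood above Ndufs5 in 8 libraries and below it in 7, so that these neighbours in the order did not separate. CytC was the lower only in replicate 4 of the control and in replicates 4 and 5 at 25 ng/bee. At 250 ng/bee it was the lower in all but replicate 3. The ratio of Ndufs5 to CytC, given below, did not pass between any groups. Uqcr11 ranked between 18 and 120 of 9560 tested genes by FPKM, depending on the library, while Adk1 ranked between 499 and 992. Ndufs5 and CytC were between these, at ranks 173 to 263 and 187 to 235.

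**Figure D1:**
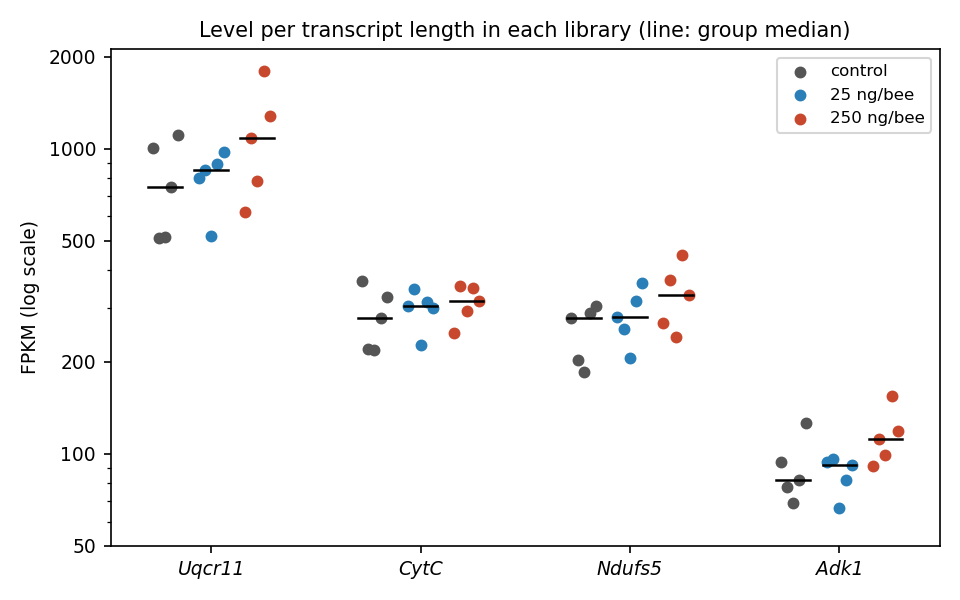
FPKM of each gene on a log axis, with 1 point per library and a line at the group median. Uqcr11 lies above the other 3 genes in every library and Adk1 below them, while the ranges of CytC and Ndufs5 overlap.

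The first gene, Ndufs5 of complex I, had higher mean levels at each dose than in the control. In CPM, control replicates 1 to 5 had 164, 173, 158, 200.4 and 208, those at 25 ng/bee 214, 177, 163, 236 and 249.8, and those at 250 ng/bee 248, 245, 185, 267 and 221. At 250 ng/bee, 4 of 5 libraries lay above every control library, with replicate 3 inside the control range, and at 25 ng/bee 3 of 5 did. Mean levels were 181 ± 22.3 CPM in the control, 208 ± 37.5 CPM at 25 ng/bee and 233 ± 31.5 CPM at 250 ng/bee (SD, n = 5). The log2 fold change at 250 ng/bee was 0.37 ± 0.13 (SE), with an unadjusted p of 0.0133 and an adjusted p of 0.339 over all tested genes (edgeR, two-sided), so it did not pass. At 25 ng/bee it was 0.20 ± 0.13 (adjusted p = 0.998).

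Nearly all of the Ndufs5 signal belonged to the 683 nt transcript. The shorter XM_026440546.1 held a share of the gene's FPKM that ranged from 0.16% to 9.65% in control libraries. Libraries at 25 ng/bee ranged from 0.31% to 4.86%, those at 250 ng/bee from 0.03% to 4.57%, so the groups overlapped. In limma on log2(FPKM + 0.1), the long transcript differed by 0.41 ± 0.20 at 250 ng/bee from the control (adjusted p = 0.997). For the short one the difference was -0.39 ± 1.27 (adjusted p = 0.998), which changed sign without replicate 1 at 250 ng/bee (0.76). The other 3 genes have a single transcript, and their FPKM differences at 250 ng/bee were 0.49 ± 0.30 for Uqcr11, 0.17 ± 0.17 for CytC and 0.37 ± 0.18 for Adk1. Of 16556 transcripts tested 0 passed (0%) in each comparison. Higher at an unadjusted p under 0.05 were 1.43% of them at 25 ng/bee and 2.24% at 250 ng/bee against the control, with none of the 5 among them, and 2.4% between the doses, with Adk1 (0.41 ± 0.18, adjusted p = 1 in limma).

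Uqcr11 of complex III varied most between pools. Control replicates 1 to 5 had 405, 293, 309, 356 and 515 CPM, those at 25 ng/bee 412, 397, 278, 458 and 459 CPM, and those at 250 ng/bee 385, 493, 408, 726 and 580.3 CPM. The groups overlapped: only replicates 4 and 5 at 250 ng/bee exceeded the highest control, and none at 25 ng/bee did. Mean levels were 376 ± 89.4 CPM in the control, 401 ± 74.1 CPM at 25 ng/bee and 519 ± 139 CPM at 250 ng/bee (SD, n = 5). The log2 fold change was 0.46 ± 0.20 (SE) at 250 ng/bee (unadjusted p = 0.0297, adjusted p = 0.388 in edgeR) and 0.09 ± 0.19 at 25 ng/bee (adjusted p = 0.998). Without replicate 4 at 250 ng/bee, the highest library, the former was 0.31, and without control replicate 5 it was 0.60. Its SD within groups was 0.33 on the log2 scale, above that of 80.2% of the 515 genes whose mean CPM lay between 0.5 and 2 times its own.

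CytC, the electron carrier, had the smallest SD within groups of the 4, at 0.13 on the log2 scale. Control replicates 1 to 5 had 348, 298, 309, 311 and 355 CPM, those at 25 ng/bee 368, 379.7, 287, 377 and 332 CPM, and those at 250 ng/bee 364, 380.2, 359.9, 333 and 339 CPM. All groups overlapped, although no library at 250 ng/bee fell below the control mean of 324 ± 25.7 CPM (SD, n = 5). The coefficient of variation within groups was 5.47% to 11.3%, against 18.5% to 26.8% for Uqcr11. At 25 ng/bee Adk1 varied less, at 10.8% against 11.3% for CytC. On the log2 scale, 12.1% of the 721 genes of like abundance had a smaller SD. Its log2 fold change was 0.11 ± 0.10 (SE) at 25 ng/bee (adjusted p = 0.998) and 0.13 ± 0.10 at 250 ng/bee (adjusted p = 0.618 in edgeR). The 95% interval of the latter ran from -0.07 to 0.34, which includes 0.

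In TMM-scaled CPM, the adenylate kinase gene Adk1 was higher in every library at 250 ng/bee than in any at 25 ng/bee. Control replicates 1 to 5 had 92.3, 109.6, 102, 96.0 and 143 CPM, those at 25 ng/bee 118, 110.1, 87.5, 103 and 106 CPM, and those at 250 ng/bee 139, 125, 127, 153 and 132 CPM. In CPM the dose groups did not overlap, which held for 0.314% of tested genes in this direction. Control replicate 5, however, lay above 4 of the 5 libraries at 250 ng/bee, while the other 4 control libraries lay below all 5. In FPKM the dose groups did overlap. Replicate 1 at 250 ng/bee had 91.4 FPKM, below replicates 1, 2 and 5 at 25 ng/bee (93.9, 96.3 and 92.1 FPKM). Mean levels were 109 ± 20.5 CPM in the control, 105 ± 11.4 CPM at 25 ng/bee and 135 ± 11.4 CPM at 250 ng/bee (SD, n = 5).

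Between the doses, the log2 fold change of Adk1 was 0.36 ± 0.12 (SE), with an unadjusted p of 0.00695 that ranked 40 among 9560 genes and an adjusted p of 0.934 in edgeR. Against the control it was 0.32 ± 0.12 at 250 ng/bee (unadjusted p = 0.0157, adjusted p = 0.346) and -0.05 ± 0.12 at 25 ng/bee (adjusted p = 0.998), and the latter turned to 0.07 without control replicate 5. For the other members, 250 against 25 ng/bee gave 0.17 ± 0.13 for Ndufs5, 0.37 ± 0.19 for Uqcr11 and 0.03 ± 0.10 for CytC, with an adjusted p of 0.934 or more.

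**Figure D2:**
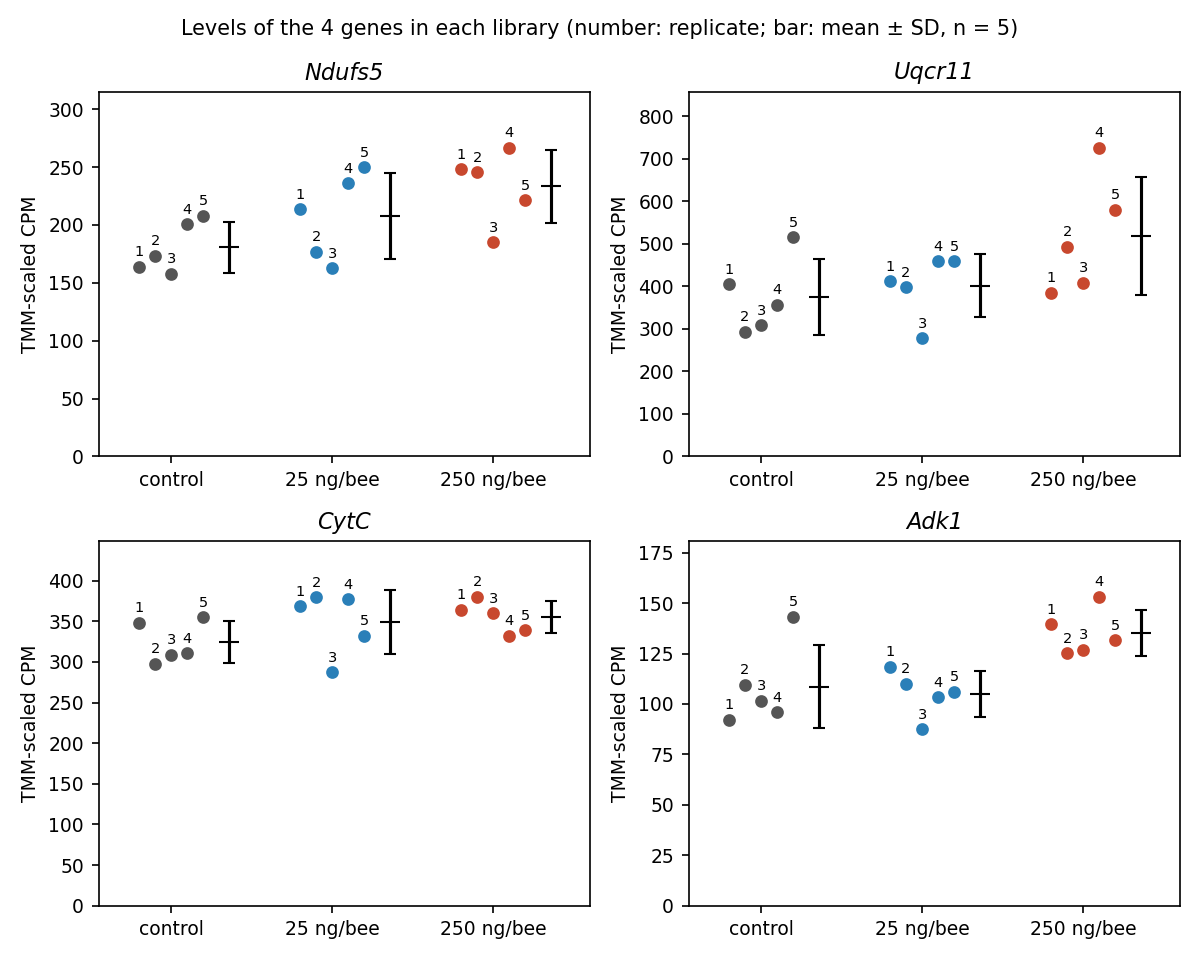
TMM-scaled CPM of the 4 genes in each library, with the replicate number above each point and the group mean ± SD (n = 5) beside it. At 250 ng/bee the Ndufs5 points of 4 libraries lie above all control points, all 5 Adk1 points at 250 ng/bee lie above those at 25 ng/bee, and CytC points stay within a narrow band.

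None of the 4 genes passed in any of the 3 comparisons in edgeR, beside 0 of 9560 tested genes (0%) in each. The comparisons are not independent, since both doses were set against the same control libraries. At an unadjusted p under 0.05 there were 235 genes (2.46%) for 25 ng/bee against the control, 1144 (12%) for 250 ng/bee against the control and 477 (4.99%) between the doses. All 4 members had a log2 fold change above 0 at 250 ng/bee, as did 44.4% of tested genes, 3 of 4 did at 25 ng/bee, beside 47.8%, and all 4 did between the doses, beside 44.1%. No member lay wholly above the control at 250 ng/bee or at 25 ng/bee, which 0.973% and 0.701% of tested genes did. At 250 ng/bee against the control, Ndufs5, Uqcr11 and Adk1 were among the 4.49% of genes that were higher at an unadjusted p under 0.05 (429 of 9560). For 25 ng/bee against the control this share was 1.06%, with no member in it, and for 250 against 25 ng/bee it was 2.42%, with Adk1. The members were chosen with earlier results of these data known, so their counts beside these shares are not a test. Of the 5 listed oxidative phosphorylation genes that are not members, 1 had an unadjusted p under 0.05 in edgeR at 250 ng/bee against the control. DESeq2 passed 54 genes and limma-voom with sample weights 390 at 250 ng/bee against the control, and the 4 members were in neither set. Their adjusted p was lowest in limma-voom, at 0.0517 for Uqcr11, 0.0602 for Adk1 and 0.0695 for Ndufs5. When only libraries prefixed 20190809 were used, so without replicate 1 at 250 ng/bee, 248 genes passed in edgeR, none of them a member. Log2 fold changes were then 0.37 for Ndufs5, 0.58 for Uqcr11, 0.15 for CytC and 0.33 for Adk1 (adjusted p = 0.108 to 0.409). No value can be had within the other prefix, which has 1 library.

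By the median over tested genes, those with short transcripts were higher at 250 ng/bee. The median log2 fold change against the control was 0.24 for the 176 genes under 500 nt and 0.16 for 1238 genes of 500 to 1000 nt. It was 0.03 for 3100 genes of 1000 to 2000 nt, -0.09 for 3176 genes of 2000 to 4000 nt and -0.14 for 1870 genes over 4000 nt. The slope of a library's log2 level on log2 transcript length was -0.02 to -0.06 in the 5 libraries at 250 ng/bee and 0.01 to 0.06 in the control, without overlap, and -0.06 to 0.07 at 25 ng/bee. With a correction that takes this trend out of each library, the log2 fold changes at 250 ng/bee were 0.17 ± 0.11 for Ndufs5 (from 0.37), 0.21 ± 0.18 for Uqcr11 (from 0.46), 0.04 ± 0.09 for CytC (from 0.13) and 0.23 ± 0.12 for Adk1 (from 0.32), with unadjusted p of 0.131, 0.247, 0.705 and 0.0814. For Adk1 between the doses the corrected value was 0.32 ± 0.12 (unadjusted p = 0.0196, adjusted p = 1). The part of the length trend in the uncorrected differences was not tested.

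The other respiratory chain genes with a symbol had log2 fold changes from -0.09 to 0.28 at 250 ng/bee against the control, beside 0.13 to 0.46 for the 3 member genes of the chain. The list fixed by name held 8 oxidative phosphorylation genes, of which 5 are not members: Ndufs1 and Ndufb2 of complex I, Cox6b1 and Cox6c of complex IV, and ATP5G2, which encodes the ring subunit of complex V. At 250 ng/bee 0 of the 8 passed, 6 were above and 2 below the control, and the median log2 fold change was 0.19, beside -0.03 over all tested genes. Of the 5 that are not members, 3 were above and 2 below, with a median of 0.13. With the length correction 4 of the 8 were above and 4 below, with a median of 0.01, and with DESeq2's size factors 7 were above and 1 below, with a median of 0.21. At 25 ng/bee 7 of 8 were above the control (4 of 8 with the length correction), with a median of 0.06 and 0 passing. Single libraries moved this median from -0.004, with 4 of 8 above, without control replicate 2 to 0.108, with 7 of 8 above, without replicate 3 at 25 ng/bee. It was 0.020 with 5 of 8 above without control replicate 3, and 0.023 and 0.035 without replicates 4 and 5 at 25 ng/bee, while without control replicates 1 and 5 it was 0.089 and 0.106.

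By complex, the core subunit gene Ndufs1, whose transcripts averaged 2429.7 nt, was at 290 ± 27.0 CPM at 250 ng/bee against 308 ± 19.8 CPM in the control (log2 fold change -0.09 ± 0.10). Ndufb2, with 453 nt, had 0.12 ± 0.11, which became -0.14 ± 0.10 with the length correction. The listed complex I genes had values on both sides of 0, that of Ndufs1 within its SE of 0. Ndufs5 was the farthest from 0. Cox6c, whose transcripts averaged 293.6 nt, had 361 ± 36.9 CPM against 296 ± 45.1 CPM, a log2 fold change of 0.28 ± 0.12 (unadjusted p = 0.0358, adjusted p = 0.396 in edgeR) that became -0.06 ± 0.08 with the correction. Cox6b1 had 0.25 ± 0.12 and 0.20 ± 0.12 with the correction, and its reads cannot be fully told from those of a gene that overlaps it on the same strand. ATP5G2 was at 1394 ± 228 CPM against 1414 ± 161 CPM (-0.02 ± 0.13). Genes of the mitochondrial genome were not analysed here.

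Other genes of ATP handling outside the chain did not pass at 250 ng/bee. Ant, the carrier that exchanges ATP for ADP across the inner mitochondrial membrane, had 1437 ± 321 CPM against 1492 ± 192 CPM in the control, a log2 fold change of -0.05 ± 0.16. It was -0.22 ± 0.12 in limma-voom, and -0.24 ± 0.14 with the length correction and without replicate 1 at 250 ng/bee, where Adk1 had 0.22 ± 0.13. Argk encodes arginine kinase, which buffers ATP in insects, and had 2007 ± 213 CPM against 2037 ± 252 CPM (-0.02 ± 0.14, and 0.04 ± 0.14 with the length correction). Tpi, a glycolytic enzyme gene, had 471 ± 74.8 CPM against 408 ± 29.7 CPM, a log2 fold change of 0.21 ± 0.12 (adjusted p = 0.503 in edgeR), and each of its 5 libraries exceeded the mean of the control. At 25 ng/bee the largest of these 4 in size was that of Ant, at -0.18 ± 0.16.

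**Figure D3:**
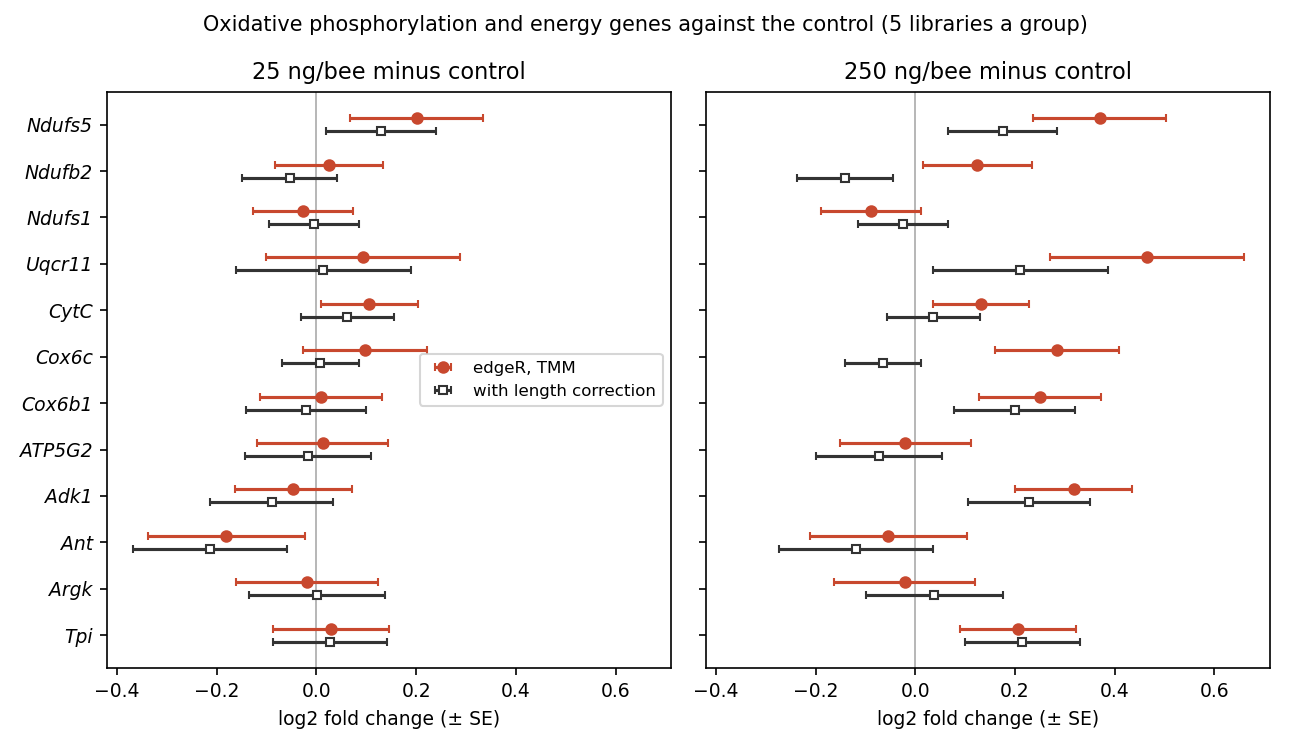
Log2 fold changes (± SE) against the control at 25 and 250 ng/bee for the 12 listed energy genes, from edgeR with TMM scaling (filled circles) and with the correction for transcript length (open squares). At 250 ng/bee the values of Ndufs5 and Uqcr11 are 0.37 and 0.46 without and 0.17 and 0.21 with the correction, and those of Cox6c, Ndufb2 and Argk change sign.

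The levels of Ndufs5, Uqcr11 and Adk1 went together over pools. Over the 15 libraries, log2(CPM + 1) of Ndufs5 and Uqcr11 had Pearson's r = 0.743 and Spearman's rho = 0.725 (two-sided permutation p = 0.00112 and 0.00286, adjusted p = 0.00672 and 0.0172 over 6 pairs). For Uqcr11 and Adk1 these were 0.713 and 0.664 (permutation p = 0.00303 and 0.00926, adjusted p = 0.00909 and 0.0278), and for Ndufs5 and Adk1 0.634 and 0.618 (permutation p = 0.0129 and 0.0167, adjusted p = 0.0258 and 0.0333). The 3 pairs with CytC had r of 0.439 to 0.508 and rho of 0.396 to 0.439, and none passed (adjusted permutation p = 0.0806 to 0.146).

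None of these relations passed within groups. After taking out the group means, r was 0.646 for Ndufs5 with Uqcr11, 0.581 for Uqcr11 with Adk1 and 0.514 for Ndufs5 with Adk1 (adjusted permutation p = 0.0586, 0.0653 and 0.0955). Without the 2 libraries farthest from the median of the first gene of each pair, r was 0.624, 0.490 and 0.522 (adjusted permutation p = 0.111, 0.128 and 0.128), so that none passed over the 13 libraries left, in which the first gene also has a narrower range. Within the 14 libraries of the 20190809 prefix r was 0.812, 0.785 and 0.594 (adjusted permutation p = 0.0021, 0.00276 and 0.0531). By rank, replicate 3 at 25 ng/bee was the lowest of 15 libraries for Uqcr11, CytC and Adk1 and the next to lowest for Ndufs5. Replicate 4 at 250 ng/bee was the highest for Ndufs5, Uqcr11 and Adk1, and rank 6 from the bottom for CytC.

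Marker genes of other tissues also differed between these libraries. The muscle sum was highest in replicate 4 at 250 ng/bee (1053 CPM) and in control replicate 5 (815 CPM), the libraries with the highest Adk1, and its group medians were 150 CPM in the control, 277 CPM at 25 ng/bee and 308 CPM at 250 ng/bee, with overlapping ranges. Over the 15 libraries its log2 had r = 0.626 and rho = 0.536 with Uqcr11 (permutation p = 0.0130 and 0.0424, adjusted p = 0.0521 and 0.127 over 12 relations) and r = 0.563 and rho = 0.471 with Adk1 (permutation p = 0.0300 and 0.0794, adjusted p = 0.0721 and 0.190), and without the 2 farthest libraries r was 0.347 and 0.442. As deviations from group means r was 0.519 and rho 0.357 for Uqcr11 (adjusted permutation p = 0.284 and 0.460), and r was 0.467 and rho 0.082 for Adk1 (adjusted permutation p = 0.318 and 0.884). Within the 20190809 prefix r was 0.622 and 0.643 (adjusted permutation p = 0.0503 for each). The log2 gland sum had r = -0.683 and rho = -0.671 with Uqcr11 (permutation p = 0.00468 and 0.00729, adjusted p = 0.0494 and 0.0507), -0.731 without the 2 farthest libraries, -0.734 after taking out group means and -0.703 within the 20190809 prefix (adjusted permutation p = 0.0678, 0.0220 and 0.0503). The permutations of deviations from group means did not allow for the means taken out, so the p of 0.0220 may be too small. The gland sum had group medians of 112300, 138500 and 93280 CPM for control, 25 and 250 ng/bee.

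The length slope had r = -0.666 and rho = -0.661 with Ndufs5 (permutation p = 0.00823 and 0.00845, adjusted p = 0.0494 and 0.0507), and r = -0.406 after taking out group means. It was -0.659 without the 2 farthest libraries and -0.660 within the 20190809 prefix (adjusted permutation p = 0.106 and 0.0503). CytC passed with none of the 3 library measures, with r from -0.327 to 0.281. Without the 2 farthest libraries its r with the length slope was -0.589 and rho -0.610 (permutation p = 0.0366 and 0.0297, adjusted p = 0.133 and 0.119), and as deviations from group means r was -0.027. Whether muscle, gland, neurons or transcript length has a part in the members' differences was not tested.

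**Figure D4:**
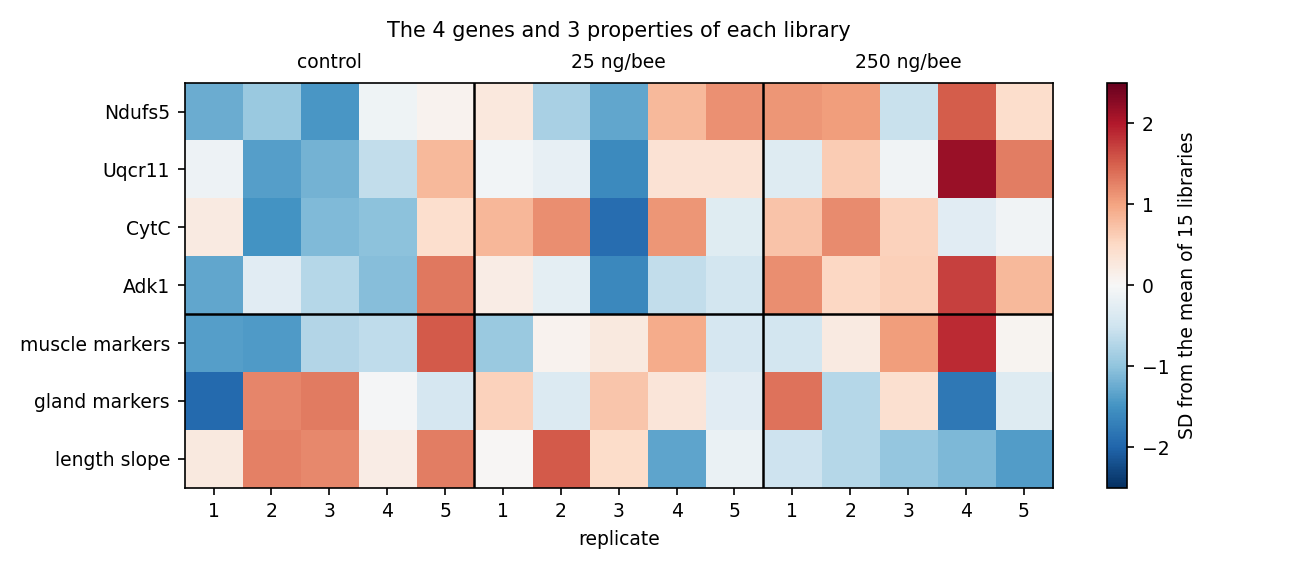
Heat map of the 4 genes as log2(CPM + 1), the log2 sums of muscle and hypopharyngeal gland markers and the length slope in 15 libraries, each row as SD from its own mean. Replicate 4 at 250 ng/bee is high for Ndufs5, Uqcr11, Adk1 and muscle markers, and replicate 3 at 25 ng/bee is low for all 4 genes.

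The ratio of CytC to Adk1 within a library, which does not depend on scaling, did not overlap between the doses. Its log2 was 1.73 ± 0.098 at 25 ng/bee, 1.40 ± 0.18 at 250 ng/bee and 1.59 ± 0.23 in the control (SD, n = 5). Libraries at 25 ng/bee ranged from 1.64 to 1.87, and those at 250 ng/bee from 1.12 to 1.60, without overlap, for a difference of -0.34 (250 minus 25 ng/bee, two-sided exact permutation p = 0.00794, the smallest 5 against 5 libraries can give, adjusted p = 0.143 over 18 ratio comparisons). The ratio of Uqcr11 to CytC was 0.32 higher on the log2 scale at 250 ng/bee than in the control (exact permutation p = 0.190, adjusted p = 0.490), or 0.17 higher without replicate 4 at 250 ng/bee, and that of Ndufs5 to CytC 0.23 higher (exact permutation p = 0.103, adjusted p = 0.490). None of the 18 comparisons passed after adjustment, and the ratios were added after the data were examined. In CPM, though not in FPKM, Adk1 alone did not overlap between the doses either, and CytC differed there by a log2 fold change of 0.03 ± 0.10 (SE).

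Among all tested genes, those with the most similar pattern after taking out group means, by Pearson's r over the 15 libraries, differed between members. For Uqcr11 they were LOC551757, LOC724221 and LOC408477 (r = 0.926, 0.922 and 0.913), at 336, 517 and 207 CPM and with transcripts of 597, 540 and 751 nt, all short. For Adk1 they were LOC726415, LOC550964 and LOC408908 (r = 0.901, 0.852 and 0.842), at 29.1, 2.2 and 487 CPM and with transcripts of 4901, 5483 and 5407 nt, all long. LOC410324 (r = 0.885), LOC412569 (0.855) and LOC102655915 (0.849) followed Ndufs5 most closely, at only 3.9, 1.5 and 0.8 CPM. LOC409051 (r = 0.838), LOC724718 (0.810) and LOC100576537 (0.809) followed CytC, at 1213, 178 and only 1.2 CPM. Uqcr11 ranked 193 among 9559 genes by likeness to Ndufs5, and Ndufs5 ranked 481 by likeness to Uqcr11.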

How the data were processed

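HISAT2 2.1.0, StringTie 2.0.2, DESeq2 1.22.2, SAMtools 1.7 and Trimmomatic 0.39 are listed in the submitters' processing notes. Their roles, the build and the use of strand are not given in the labels. The authors deposited 1 table of estimated counts per gene, and each equals the summed coverage times length of its transcripts divided by 75, the read length, to within 1 count in 100% of genes. They also deposited, per the file headers, FPKM and coverage for 28276 transcripts. Counts were rounded as deposited and tested with edgeR 4.0.16 (R 4.3.3; quasi-likelihood F test, TMM, filterByExpr, 15 libraries in 1 fit, group as the only term), with Benjamini-Hochberg adjustment over 9560 genes and a threshold of 0.05. Transcripts with at least 0.5 FPKM in 5 libraries were tested with limma 3.58.1 on log2(FPKM + 0.1). Correlations used 100000 permutations across all libraries, also for deviations from group means, where p may therefore be too small. Both tests were checked on simulated data. Groups and replicate numbers came from the titles. The main fit did not pair libraries by replicate number, and no 2 libraries of a group agreed within sampling noise (smallest chi-square per degree of freedom 18.1). Alternatives were DESeq2 1.42.0 and its size factors, limma-voom, no filter, the replicate block, a length correction, the compared groups alone and each library left out. The named genes were the 4 members, the listed genes, and for each member the 3 genes most like it. The list kept genes by name and dropped Antp, a homeotic gene. The members, the lists and the length correction were chosen with earlier results of these data known. The ratios and the library measures were added after the data were examined. Fixed promoter motifs were not analysed here, and product names were not used here.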

Additional observations from a re-analysis of the deposited data

Results flagged for a closer look

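ATP5G2 of complex V was at 1785 CPM in replicate 1 at 250 ng/bee and at 1186 to 1348 CPM in the other 4 libraries of the group, a gap that set this library apart from them. It was the only one of 39 groups of 5 values examined for the 12 listed genes and the Ndufs5 transcript share, and chance sets apart about 1 in 20 groups. The same library had 29208991 counts and the other label prefix. None of the 4 members had a library set apart in this way.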

How the results depend on the processing

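None of the 12 member differences passed under any of 23 alternatives each, and 7 of these 276 values changed sign. Adk1 at 25 ng/bee against the control was 0.034 in limma-voom and -0.10 to 0.074 without single libraries. CytC between the doses was -0.026 with the length correction, -0.033 when replicate 1 at 250 ng/bee was also left out, and -0.037 to 0.082 without single libraries. Passing genes at 250 ng/bee against the control were 0 in edgeR, 54 in DESeq2, 390 in limma-voom, 0 to 248 without single libraries (at 250 ng/bee, 248 without replicate 1 and 2 without replicate 3) and 50 when replicate 1 was left out of the length-corrected fit. The median of the 8 oxidative phosphorylation genes with the length correction was 0.0062 at 250 ng/bee against the control and -0.0221 between the doses, and -0.0085 and -0.0170 without replicate 1. The cause of these shifts was not tested.

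With the replicate block, 0 genes passed, and Ndufs5, Uqcr11, CytC and Adk1 had 0.37, 0.46, 0.13 and 0.33 at 250 ng/bee against the control (adjusted p = 0.182 to 0.578). The block lowered the SE of Ndufs5 from 0.133 to 0.096 and that of Uqcr11 from 0.195 to 0.145 (unadjusted p = 0.00225 and 0.00832 in edgeR). The SE hardly changed for CytC (0.097 and 0.096) and Adk1 (0.118 and 0.117). Same-numbered libraries had deviations correlated from -0.155 to 0.561. The best match was the same number only for replicates 4 and 5 (25 ng/bee against the control) and 3 and 5 (between the doses). At 250 ng/bee against the control none matched best, with r from -0.155 to 0.085.

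Correlations of Ndufs5 with Uqcr11, Ndufs5 with Adk1 and Uqcr11 with Adk1 no longer passed as deviations from group means (0.646, 0.514 and 0.581), without the 2 farthest libraries (0.624, 0.522 and 0.490) or, as added after the data were seen, once corrected for length (0.526, 0.514 and 0.571). Ndufs5 with Adk1 had 0.594 without replicate 1 at 250 ng/bee. Adk1 with the length slope turned to 0.254 within groups.

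FPKM differences that changed sign without single libraries ranged, at 25 ng/bee against the control, from -0.038 to 0.25 for Uqcr11, -1.27 to 0.23 for the short Ndufs5 transcript and -0.13 to 0.090 for Adk1. For the short transcript they were -1.32 to 0.76 at 250 ng/bee against the control and -0.62 to 1.10 between the doses, with 0.21 there at a pseudocount of 1, and for CytC -0.023 to 0.15 between the doses.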
